A study of Mus musculus with 4 samples.

Results

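Complement C1q was followed through its 3 genes, C1qa, C1qb and C1qc, chosen by symbol in the deposited gene lists, which hold 27998 genes. All 3 were found, once each. They were described in tumour-infiltrating CD45+ cells (CD45 marks leukocytes) of wild-type 129S6 mice, an inbred strain that was the background of every group. After tumour transplant, mice were injected on days 3, 6 and 9 with 200 µg of antibody: RMP1-14 against PD-1, 9D9 against CTLA-4, both of these (the combination) or a rat IgG2a control. T cells carry both targets as receptors that restrain them. Live CD45+ cells were sorted from collagenase-digested tumours and their transcripts were counted by 3′ end droplet sequencing. Each group had 1 library, and the labels do not say how many mice it came from. There was therefore no replicate check and no test, and intervals, all 95%, cover counting error only. Effects of the library, the group or a batch cannot be told apart.

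C1q is the recognition molecule of the classical complement pathway. Its A, B and C chains, each encoded by 1 of the 3 genes, fold together into triple-helical stalks that end in globular heads, and the heads bind antibody in immune complexes, dying cells and other targets. Bound C1q carries the proteases C1r and C1s, which cleave C4 and C2 and so lead to C3. Unlike most complement components, which the liver makes, C1q is made mainly by macrophages, and C1q transcripts are widely used as a mark of tissue and tumour macrophages.

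The genes lie next to each other on chromosome 4 on the minus strand. In the GENCODE vM21 annotation of GRCm38, C1qb (ENSMUSG00000036905) spans chr4:136880129-136886187, C1qc (ENSMUSG00000036896) chr4:136889804-136893065 and C1qa (ENSMUSG00000036887) chr4:136895917-136898803. Gaps of 3.62 kb and 2.85 kb separate them, and all 3 fit within 18.7 kb. RefSeq promoter windows of build GRCm38.p6, each 250 bases before to 50 bases after a start site, matched 2 of the 3 genes. They are shown because the genes are neighbours and were counted together in the same cells (below). The C1qb window is chr4:136886151-136886450 and the C1qc window chr4:136892865-136893164, both read 5′ to 3′ on the minus strand, and capitals mark the match to a searched motif.
C1qb: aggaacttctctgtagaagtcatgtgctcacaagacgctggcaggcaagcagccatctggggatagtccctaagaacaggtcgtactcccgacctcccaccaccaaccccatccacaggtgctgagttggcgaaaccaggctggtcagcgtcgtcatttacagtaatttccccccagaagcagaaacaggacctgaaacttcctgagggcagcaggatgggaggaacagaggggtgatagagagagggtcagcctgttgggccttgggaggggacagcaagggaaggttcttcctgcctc
C1qc: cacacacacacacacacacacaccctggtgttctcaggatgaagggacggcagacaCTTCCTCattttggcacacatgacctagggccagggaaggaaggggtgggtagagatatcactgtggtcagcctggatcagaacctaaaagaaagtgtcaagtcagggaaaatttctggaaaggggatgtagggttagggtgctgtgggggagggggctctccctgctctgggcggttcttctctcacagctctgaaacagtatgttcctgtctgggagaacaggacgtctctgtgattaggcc
Both strands were searched for 6 motifs linked to myeloid genes or core promoters: GAGGAAG (the core that PU.1 and other ETS factors bind), TGCTGAC (a MAF half-site), GAAANNGAA (bound by IRF factors), TTGCNNAA (C/EBP), TGACGTCA (the cyclic AMP response element) and TATAAA (the TATA box). The C1qc window held 1 match, CTTCCTC, the PU.1 core on the other strand, and the C1qb window held none of the 6. The first base of the match lies at position -194 from the RefSeq start site of the window. That site lies inside the GENCODE span of C1qc given above, so the match is nearer to the GENCODE start. The PU.1 core is in 13.6% of all 32851 promoter windows of this length, the MAF half-site in 4.67%, the IRF motif in 8.56%, the C/EBP motif in 10.8%, the cyclic AMP element in 1.79% and the TATA box in 13.6%. A match is a description of the letters and not a site of binding.

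The authors listed 14491 cells with counts, 3417 in the anti-PD-1, 3336 in the anti-CTLA-4, 3945 in the combination and 3793 in the control library. The listed cells held 11176246 to 13374294 transcript molecules, counted by their barcodes (UMIs), per library, with medians of 2549 to 2991 per cell. Pairs of libraries shared 12 to 25 barcode sequences, and at most 3 of a pair's shared barcodes were in the same cluster. The authors' 19 clusters carry numbers only. Markers that include no C1q gene named clusters 1, 2, 4, 7 and 15 macrophage/monocyte-like, 3, 6, 8, 9 and 10 T cell-like, 12 neutrophil-like, 18 fibroblast or tumour-like and 5 natural killer (NK) cell-like. Of the dendritic cell-like clusters, 17 was migratory, 16 plasmacytoid and 11 conventional, and clusters 0, 13 and 14 stayed unnamed. Cluster 7 was led by interferon-response genes (Rsad2, Ifit1 to Ifit3) and cluster 15 by cell-division genes. The authors' clustering used the transcriptome, which may include C1q, so differences between clusters are descriptions.

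C1q transcripts were concentrated in macrophage/monocyte-like cells. Of 327713 C1q UMIs, the 5 macrophage/monocyte-like clusters held 83.1% with 41.8% of the cells, and unnamed cluster 0 held a further 11.04% with 16% of the cells. UMIs of the genes were added up per cluster and divided by its total UMIs, and are given for every 1000000 UMIs (CPM). Cluster 1, led by Cd72, Vcam1 and Ms4a7, was the highest in each library among clusters with at least 20 cells. Its summed C1q was 15636 CPM in the anti-PD-1, 18397 in the anti-CTLA-4, 14739 in the combination and 16930 in the control library. Cluster 2, led by Pf4, Ccl8 and Apoe, followed in each library, with 14385 CPM under anti-PD-1, 13095 under anti-CTLA-4, 11372 under the combination and 15365 in control. The counting intervals of the 2 clusters did not overlap in any library. Proliferating cluster 15 reached 14406 in the 126 control cells and was left with 9 to 14 cells in each treated library.

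The other macrophage/monocyte-like clusters carried less. Cluster 4, led by Chil3 and Slpi, had 6207 CPM under anti-PD-1, 6645 under anti-CTLA-4, 4315 under the combination and 6515 in control. Cluster 7 had 4486 CPM under anti-PD-1, 4260 under anti-CTLA-4, 2988 under the combination and 6537 in control. Clusters 4 and 7 did not differ beyond counting error in the control library. Cluster 0, which carries monocyte genes beside Il1r2, had 4996 CPM under anti-PD-1, 5257 under anti-CTLA-4, 3779 under the combination and 5696 in control. Among the T and NK cell-like clusters, the level across libraries ran from 82.5 to 1711 CPM.

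**Figure D1:**
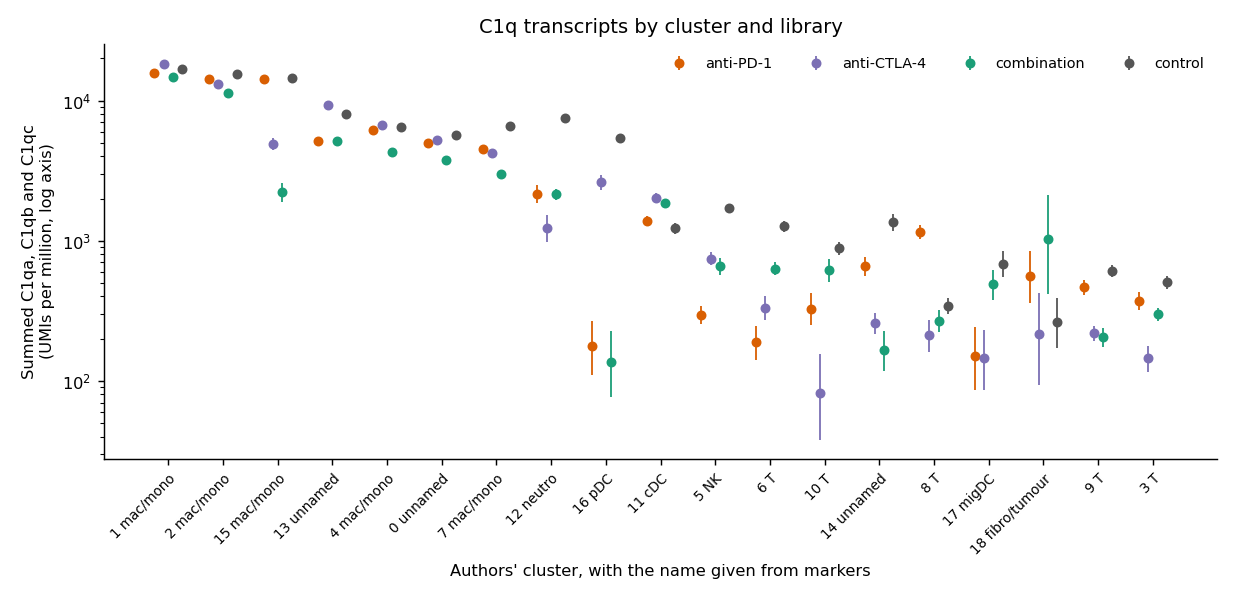
Summed C1qa, C1qb and C1qc CPM (log axis) for each of the authors' 19 clusters, ordered by the level over all libraries, with 1 point per library and bars for the 95% Poisson interval. Clusters 1 and 2 lie at or above 11372 in each library, and the T and NK cell-like clusters lie at or below 1711.

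C1qa, the gene of the A chain, had 4012 CPM in macrophage/monocyte-like cells under anti-PD-1, 3790 under anti-CTLA-4, 2393 under the combination and 5143 in control. C1qb, the gene of the B chain, had 4960 CPM under anti-PD-1, 4904 under anti-CTLA-4, 3365 under the combination and 6366 in control. C1qc, the gene of the C chain, had 2981 CPM under anti-PD-1, 3130 under anti-CTLA-4, 1786 under the combination and 4079 in control. All 3 genes were lowest in the combination and highest in the control library, with the single-antibody libraries between them. The share of these cells with at least 1 C1q UMI was 90.9% under anti-PD-1, 87.95% under anti-CTLA-4, 79.8% under the combination and 95.8% in control. With every cell thinned to 1000 UMIs, and shallower cells left out, the shares were 85.2% under anti-PD-1, 82.6% under anti-CTLA-4, 71.2% under the combination and 92.8% in control. Thinning kept 1223 of 1256 such cells under anti-PD-1, 1375 of 1411 under anti-CTLA-4, 1778 of 1868 under the combination and 1517 of 1521 in control. Median depth was 3688 UMIs per cell under anti-PD-1, 3370 under anti-CTLA-4, 3253 under the combination and 4296 in control. In T cell-like cells, which should lack the genes, the thinned shares were 17.6% under anti-PD-1, 13.4% under anti-CTLA-4, 11.1% under the combination and 22.2% in control, over 626, 732, 1106 and 1105 kept cells of these libraries. Unthinned they were 33.8% under anti-PD-1, 31.9% under anti-CTLA-4, 20.2% under the combination and 40.6% in control, at median depths of 1698 to 2345 UMIs.

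The log2 ratio of summed C1q over control in macrophage/monocyte-like cells was -0.38 (-0.40 to -0.37) under anti-PD-1, -0.40 (-0.41 to -0.38) under anti-CTLA-4 and -1.05 (-1.06 to -1.03) under the combination. With anti-PD-1, 0 of the 3 genes were lower by 0.5 or more (log2), where 18.1% of 8539 genes were, and none was higher by that much, where 9.5% were. With anti-CTLA-4, 0 of 3 were lower by 0.5, where 21.5% of 8577 genes were, and none was higher, where 9.51% were. In the combination 3 of 3 were lower by 0.5, where 24.8% of 8714 genes were, and none was higher, where 9.23% were. The combination ratios were -1.10 for C1qa, -0.92 for C1qb and -1.19 for C1qc, which placed the genes at positions 575, 819 and 486 from the lowest of all 8714. The 3 comparisons share the control library. Set against the single antibodies, the combination was lower by 0.5 for 3 of 3 genes over anti-PD-1 (C1qa -0.75, C1qb -0.56, C1qc -0.74), where 13.2% of 8156 genes were, and for 3 of 3 over anti-CTLA-4 (C1qa -0.66, C1qb -0.54, C1qc -0.81), where 11.4% of 8162 genes were. Median ratios of all genes over control were -0.10 under anti-PD-1, -0.15 under anti-CTLA-4 and -0.19 under the combination. Scaling by size factors instead of totals moved the class ratios up by 0.07, 0.11 and 0.15 in that order without turning a sign.

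The class was made of different clusters in different libraries. Cluster 1 held 24.4% of macrophage/monocyte-like cells in the anti-PD-1, 29.6% in the anti-CTLA-4 and 13.6% in the combination library, against 70.7% in control. Cluster 2 held 43.7% under anti-PD-1, 30.8% under anti-CTLA-4 and 36.8% under the combination, against 10.5% in control. Cluster 4 held 20.1% under anti-PD-1, 18.6% under anti-CTLA-4 and 31.5% under the combination, against 3.62% in control. Cluster 7 held 11.1% under anti-PD-1, 19.99% under anti-CTLA-4 and 17.3% under the combination, against 6.97% in control. When each library's cluster levels were weighted by the control library's mix, the log2 ratio over control was -0.11 under anti-PD-1, -0.03 under anti-CTLA-4 and -0.37 under the combination. With cluster 15 also left out it was -0.12 under anti-PD-1, 0.07 under anti-CTLA-4 and -0.24 under the combination, so the sign for anti-CTLA-4 turned.

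Within clusters, the combination library was the lowest of the 4 in clusters 0, 1, 2, 4 and 7. Its log2 ratio over control was -0.20 (-0.23 to -0.17) in cluster 1, -0.43 (-0.47 to -0.40) in cluster 2, -0.59 (-0.67 to -0.52) in cluster 4, -1.13 (-1.21 to -1.05) in cluster 7 and -0.59 (-0.65 to -0.53) in cluster 0. Anti-PD-1 over control gave -0.11 in cluster 1, -0.10 in cluster 2, -0.07 (-0.15 to 0.01) in cluster 4, -0.54 in cluster 7 and -0.19 in cluster 0. Anti-CTLA-4 over control gave 0.12 (0.10 to 0.14) in cluster 1, -0.23 in cluster 2, 0.03 (-0.05 to 0.11) in cluster 4, -0.62 in cluster 7 and -0.12 in cluster 0. Cluster 7, the interferon-response cluster, thus had the lowest ratio of these 5 clusters in each comparison. No sign turned with size factors or with ribosomal and mitochondrial genes left out of the total. The control library held 55 cells of cluster 4 and 106 of cluster 7, fewer than any treated library. Its 10 cells richest in C1q held 57.5% of the C1q UMIs of cluster 4 and 43.9% of those of cluster 7. In the combination library these shares were 11.8% and 29.1%. The counting intervals do not cover this spread between cells.

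**Figure D2:**
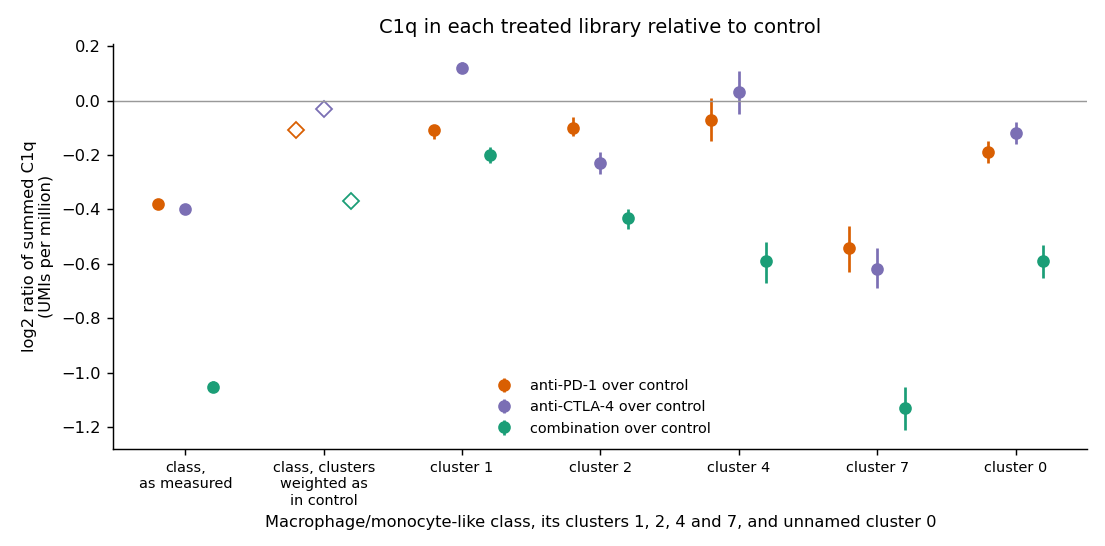
Log2 ratio of summed C1q CPM over control for the macrophage/monocyte-like class as measured, for the class with clusters weighted as in control (open diamonds, no interval), and for clusters 1, 2, 4, 7 and 0. Bars are 95% counting intervals, and the combination lies at -1.05 as measured and at -0.37 with the control mix.

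The 3 genes were not lower by the same amount in the combination. C1qb had the smallest drop in each of these 5 clusters: in cluster 1 its log2 ratio over control was -0.09 (-0.13 to -0.05), against -0.21 (-0.26 to -0.16) for C1qa and -0.38 (-0.44 to -0.32) for C1qc. In cluster 7 the ratios were -0.91 (-1.02 to -0.80) for C1qb, -1.28 (-1.42 to -1.14) for C1qa and -1.38 (-1.53 to -1.22) for C1qc. The share of C1q UMIs that came from C1qb in macrophage/monocyte-like cells was 44.6% (44.2 to 45.1%) in the combination library, 41.5% in both single-antibody libraries and 40.8% (40.6 to 41.1%) in control. C1qc made up 23.7% in the combination, 24.9% with anti-PD-1 and 26.5% with anti-CTLA-4, against 26.2% in control. Within cluster 1 the C1qb share was 44.4% in the combination library and 41.1% in control, and within cluster 7 it was 51.0% and 43.9%, with no overlap of intervals in either cluster. In cluster 4 the single antibodies were close to the combination, with 44.9% each beside 45.3%, against 39.4% in control. In cluster 2 the share was 43.5% in the combination, 40.3% under anti-PD-1, 40.0% under anti-CTLA-4 and 41.1% in control. In cluster 0 the intervals overlapped, at 48.2% (46.3 to 50.1%) in the combination and 45.5% (44.5 to 46.5%) in control. A 3′ count depends on how well each transcript's end is captured, so these shares compare libraries and do not rank the genes by abundance.

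Single cells spread widely around these levels. The median macrophage/monocyte-like cell had 107 C1q UMIs per 10000 UMIs in the anti-PD-1, 95.3 in the anti-CTLA-4 and 51.5 in the combination library, against 156 in control. In cluster 1 the share of cells with at least 100 per 10000 was 73.3% under anti-PD-1, 82.01% under anti-CTLA-4, 67.3% under the combination and 78.4% in control. Cluster 4 was mixed: over the 4 libraries 45.1% of its cells had under 10 per 10000 and 18.6% had at least 100. In cluster 0, 53.1% of cells were under 10 and 16.7% at or above 100, and in cluster 7, 52.9% and 10.2%. The median cell of cluster 4 had 36.4 per 10000 under anti-PD-1, 28.4 under anti-CTLA-4, 8.03 under the combination and 25.6 in control. The median cell of cluster 7 had 9.22 under anti-PD-1, 9.23 under anti-CTLA-4, 4.40 under the combination and 21.3 in control. The quartile ranges of all 4 libraries overlapped within each of these clusters.

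**Figure D3:**
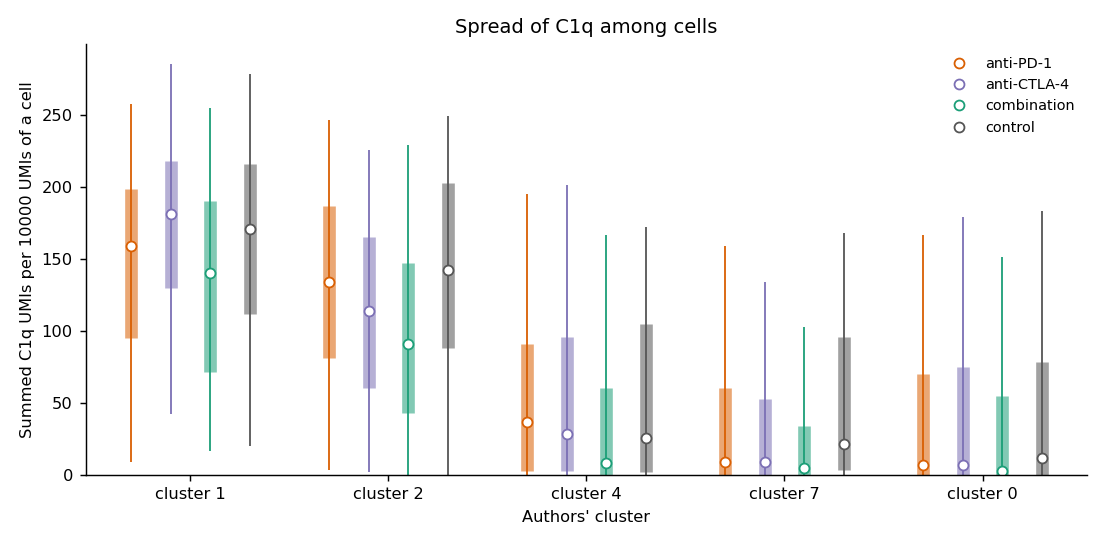
Summed C1q UMIs per 10000 UMIs of each cell in clusters 1, 2, 4, 7 and 0, with circles at the median, thick bars from the 25th to the 75th percentile and thin lines from the 5th to the 95th. Medians exceed 90 in clusters 1 and 2 in each library and stay under 37 in clusters 4, 7 and 0.

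Across the macrophage/monocyte-like class, where 1 gene was seen the others usually were too. All 3 genes had a UMI in 78.1% of macrophage/monocyte-like cells under anti-PD-1, 72.4% under anti-CTLA-4, 59.2% under the combination and 88.2% in control. None of the genes was seen in 9.08% under anti-PD-1, 12.05% under anti-CTLA-4, 20.2% under the combination and 4.21% in control. Joint detection was less complete in clusters 7 and 0 over the 4 libraries. In cluster 7 all 3 genes were seen in 37.5% of cells, 2 in 10.9% and only 1 in 21.3%. In cluster 0 these shares were 38.7%, 9.53% and 18.8%. Across macrophage/monocyte-like cells, Pearson r between pairs of the genes (log2 of UMIs per 10000 plus 1) ran from 0.836 to 0.870 over 3 pairs and 4 libraries of 1256 to 1868 cells. It ran from 0.659 to 0.801 within cluster 1, 0.714 to 0.861 within cluster 2, 0.831 to 0.894 within cluster 4, 0.724 to 0.846 within cluster 7 and 0.801 to 0.852 within cluster 0. By rank correlation the values ran from 0.72 to 0.85 in the class and from 0.46 to 0.67 within cluster 1, the lowest of these clusters. The genes share a cell's library and depth, and across the class their mean had r of 0.094 to 0.317 with log2 total UMIs. Within clusters that r was higher in places, reaching 0.477 in cluster 7 under anti-CTLA-4 and 0.454 in cluster 4 in control. In T cell-like cells r ran from 0.235 to 0.390, and from -0.021 to 0.061 once cells with 10 or more C1q UMIs were left out. That cut lowers r by construction, and it left 0.411 to 0.570 in macrophage/monocyte-like cells.

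Over the 4 libraries together, most C1q UMIs of lymphoid cells sat in few cells, though not in each library. Of 3829 T cell-like cells, 2645 had no C1q UMI, 872 had 1, and 53 had 10 or more. Those 53 cells held 64.4% of the class's C1q UMIs, with 64.8% under anti-PD-1, 37.1% under anti-CTLA-4, 73.2% under the combination and 66.8% in control. Among 993 NK cell-like cells, 24 such cells held 82.3%, with 38.2% under anti-PD-1, 84.6% under anti-CTLA-4, 86.5% under the combination and 87.8% in control. The 77 lymphoid cells with 10 or more had a median of 7327 UMIs, against 1842 in the others. Lyz2, a lysozyme of myeloid cells, was seen in 98.7% of the 77 and in 44.9% of the others, and Csf1r, the receptor for the macrophage growth factor, in 72.7% and 2.97%. Cd3d, a T cell receptor subunit, was seen in 71.4% and 72.2%, but these shares mix T and NK cell-like cells in unlike proportions. Among NK cell-like cells alone Cd3d was seen in 12.5% of the 24 and in 6.40% of the others. In T cell-like cluster 8 it was seen in 100% and 96.9%. Whether these barcodes held more than 1 cell was not tested.

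Leaving those cells out lowers a level by construction, as they were picked by their C1q count. The same cut took macrophage/monocyte-like cells from 11781 to 770 CPM over the 4 libraries. The lymphoid level that remained was ordered by library. T and NK cell-like cells together had 179.6 CPM under anti-PD-1, 131 under anti-CTLA-4 and 98.8 under the combination, against 228 in control. The whole libraries had 6725 CPM under anti-PD-1, 6460 under anti-CTLA-4 and 4666 under the combination, against 9341 in control. Over the 6 T and NK cell-like clusters the remaining level lay between 74.7 and 257 CPM in the 4 libraries. With these cells included, the T cell-like level was 7.13% of the whole-library level under anti-PD-1, 3.21% under anti-CTLA-4, 7.59% under the combination and 6.88% in control. For Lyz2 the same share was 10.2% under anti-PD-1, 4.34% under anti-CTLA-4, 8.33% under the combination and 8.81% in control. For Cd74, the invariant chain of MHC class II, it was 9.84% under anti-PD-1, 4.89% under anti-CTLA-4, 9.04% under the combination and 9.95% in control. The share differed between the genes used as a gauge. For Apoe it was 9.43% under anti-PD-1, 6.12% under anti-CTLA-4, 5.23% under the combination and 11.75% in control. The highest share of a gauge gene in T cell-like cells was 28.2%, in control. The gene shares within C1q in T and NK cell-like cells were 30.6% C1qa, 45.2% C1qb and 24.2% C1qc, beside 32.7%, 41.8% and 25.5% in macrophage/monocyte-like cells. Subtracting the T cell-like level left the class ratios at -0.38 under anti-PD-1, -0.36 under anti-CTLA-4 and -1.06 under the combination.

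Cells with 10 or more C1q UMIs also set much of the level of some dendritic and neutrophil-like clusters in some libraries. Leaving such cells out lowers a level by construction. Over the 4 libraries the same cut took cluster 4 from 5360 to 394 CPM and cluster 0 from 5109 to 498. Plasmacytoid dendritic cell-like cluster 16 had 176 CPM under anti-PD-1, 2614 under anti-CTLA-4, 137 under the combination and 5424 in control. No cell had 10 or more C1q UMIs under anti-PD-1 or the combination, while 2 of 29 did under anti-CTLA-4, holding 91.9%, and 15 of 57 in control, holding 97.9%. Without such cells the level in the 4 libraries lay between 137 and 246.5. Neutrophil-like cluster 12 had 2165 CPM under anti-PD-1, 1229 under anti-CTLA-4, 2142 under the combination and 7570 in control, where 18 of 53 cells held 98.7%. In the treated libraries such cells were 5 of 38 under anti-PD-1 (93.2%), 2 of 41 under anti-CTLA-4 (78.8%) and 10 of 116 under the combination (90.2%). Without such cells it lay between 196 and 305. Conventional dendritic cell-like cluster 11 went the other way, with 1382 CPM under anti-PD-1, 2019 under anti-CTLA-4, 1855 under the combination and 1231 in control. Without its C1q-rich cells it had 226 CPM under anti-PD-1, 298 under anti-CTLA-4, 290.2 under the combination and 270.5 in control.

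**Figure D4:**
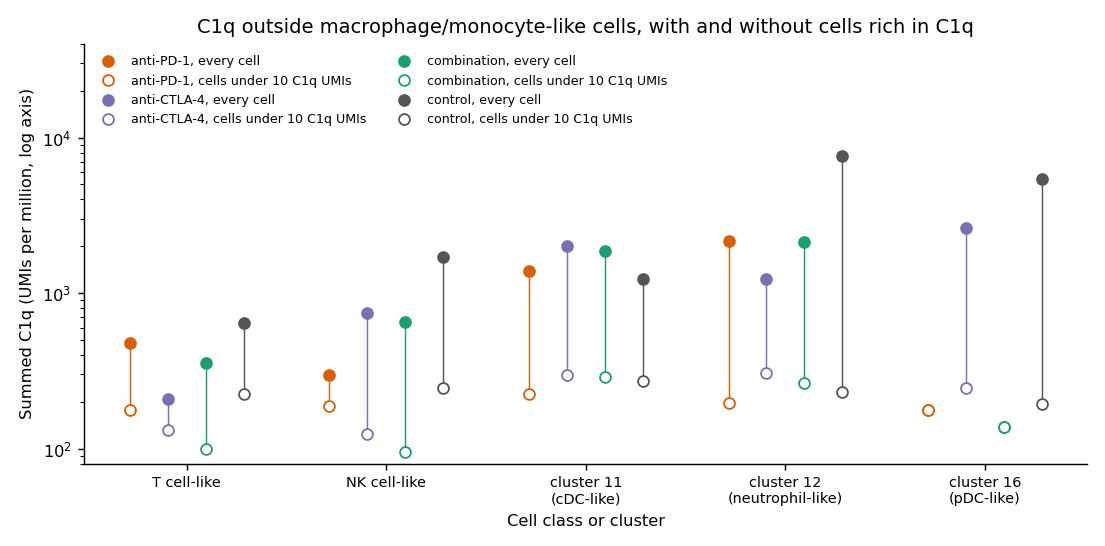
Summed C1q CPM (log axis) in the lymphoid (T or NK) cell-like classes, in neutrophil-like cells and in conventional and plasmacytoid dendritic cell-like cells, with every cell (filled) and with cells of 10 or more C1q UMIs left out (open), 1 pair per library. The open points lie between 94.4 and 305, while the filled ones reach 7570. Leaving out cells by their C1q count lowers a level by construction.

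By the correlation of log2(CPM + 1) over the 19 clusters among 8984 genes, the 10 genes with the pattern most like summed C1q included Adgre1 (r = 0.99), Clec4a2 (0.97), Csf1r (0.96), AF251705 (0.96), Ms4a6c (0.95), Pid1 (0.95), P2ry6 (0.95), C3ar1 (0.95) and Msr1 (0.95). Adgre1 encodes the macrophage surface protein F4/80, C3ar1 the receptor for the C3a fragment and Msr1 a scavenger receptor. By rank correlation 6 of the 10 stayed among the top 10. Cell by cell within the macrophage/monocyte-like class, the closest of 2747 genes were Ccl8 (mean r over the libraries 0.41), Lgmn (0.40), Sepp1 (0.39), Ms4a7 (0.38), Aif1 (0.34), Cd63 (0.34), Fcgrt (0.32), Itm2b (0.30), Grn (0.29) and H2-Eb1 (0.28). Ccl8 encodes a chemokine, Lgmn and Grn lysosomal proteins, Sepp1 a selenium carrier and H2-Eb1 an MHC class II chain. The lowest were Prdx6 (-0.37), Slpi (-0.35), Cd9 (-0.30), Id2 (-0.30) and Mcemp1 (-0.30). Within cluster 1 alone Ccl8 had 0.25, Lgmn 0.18 and Prdx6 -0.018, and within cluster 2 alone 0.35, 0.33 and -0.13. These values describe cells that share libraries and depth.

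The other genes of the pathway went both ways. Of 44 listed complement, C1q-binding and regulatory genes, 26 had at least 50 UMIs in macrophage/monocyte-like cells, and 25 could be compared in each treated library. With anti-PD-1, 3 of 25 were lower and 8 higher by 0.5 or more (log2), against 18.1% and 9.5% of all genes. With anti-CTLA-4, 7 were lower and 9 higher, against 21.5% and 9.51%, and in the combination 6 were lower and 8 higher, against 24.8% and 9.23%. The list medians were 0.19 under anti-PD-1, -0.09 under anti-CTLA-4 and -0.14 under the combination, beside -0.10, -0.15 and -0.19 for all genes.

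Of 4 listed C1 protease genes 2 had enough counts, and both were higher in each treated library. C1ra, which encodes C1r, had 46.8 CPM under anti-PD-1, 39.6 under anti-CTLA-4 and 45.03 under the combination, against 25.3 in control. Log2 ratios over control are given below in the order of these 3 treated libraries, and for C1ra they were 0.89, 0.65 and 0.83. C1s1, which encodes C1s, had 10.8 CPM under each single antibody and 22.8 under the combination, against 1.75 in control, where it rested on 12 UMIs (log2 ratios 2.62, 2.62 and 3.70). C3, the central component, had 381 CPM under anti-PD-1, 379 under anti-CTLA-4 and 345 under the combination, against 156 in control (1.29, 1.28 and 1.14). Cfb, factor B of the alternative pathway, had 365 CPM under anti-PD-1, 325 under anti-CTLA-4 and 330.2 under the combination, against 155 in control (1.24, 1.07 and 1.09). Cfp, properdin, which stabilises the alternative pathway's enzyme, was lower, with 631 CPM under anti-PD-1, 411 under anti-CTLA-4 and 388 under the combination, against 736 in control (-0.22, -0.84 and -0.92). C4b, a gene of C4, which C1s cleaves, was higher past counting error with anti-CTLA-4 (0.91), with 0.27 (-0.08 to 0.62) for anti-PD-1 and -0.06 (-0.40 to 0.29) for the combination. Fcna, a ficolin of the lectin pathway, was higher with anti-PD-1 (1.42), with 0.02 under anti-CTLA-4 and -0.69 under the combination, on 50 UMIs in control. The complement regulator Cr1l had -0.07, -0.39 and -0.35. The C1 inhibitor gene Serping1 had 9 UMIs in control, at most 1.32 CPM in any library, and was not compared.

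Receptors went both ways, and their log2 ratios over control are given in the same order. Itgax, the alpha chain of complement receptor 4, was higher, at 61.5 CPM under anti-PD-1, 54.6 under anti-CTLA-4 and 55.7 under the combination, against 19.02 in control (1.69, 1.52 and 1.55), and its beta chain gene Itgb2 had 0.12, 0.27 and 0.47. C5ar1, the receptor for the C5a fragment, was lower (-0.35, -0.99 and -0.44), as was C3ar1 (-0.18, -0.52 and -0.33). Cd93, first described as a C1q receptor, was lower, at 20.4 CPM under anti-PD-1, 22.4 under anti-CTLA-4 and 20.8 under the combination, against 58.5 in control (-1.52, -1.38 and -1.49), and C1qbp, a mostly mitochondrial protein that binds C1q heads, was lower as well (-0.81, -0.81 and -0.80). Lrp1, an uptake receptor, had -0.59, -0.62 and -0.26, and Lair1, an inhibitory receptor that binds C1q, -0.21, -0.40 and -0.51. Scarf1, a scavenger receptor for C1q-coated dying cells, was higher (0.89, 1.05 and 0.80), and Calr, calreticulin, had 0.07, -0.09 and 0.04. Of the transcription factors, Cebpb was higher in each (0.34, 0.58 and 0.83) and so was Irf8 (0.39, 0.66 and 0.60). Maf was higher with anti-PD-1 (0.44) and lower with anti-CTLA-4 (-0.60) and the combination (-0.81). Spi1, which encodes PU.1, had -0.07, -0.18 and -0.33, and Nr1h3, the oxysterol receptor LXR alpha, 1.09, 0.24 and 0.35. The cluster mix described above differs between the libraries for these genes too, and its part in their ratios was not tested.

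**Figure D5:**
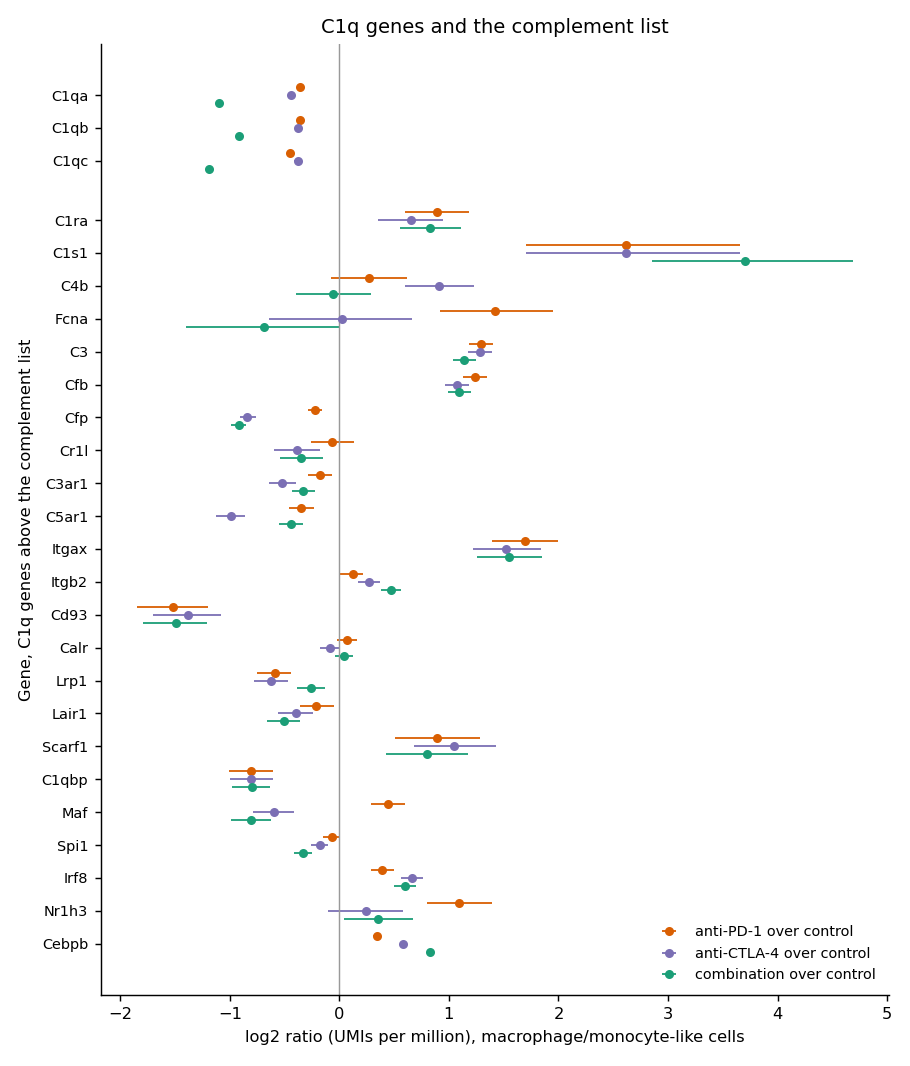
Log2 ratio over control of CPM in macrophage/monocyte-like cells for C1qa, C1qb and C1qc (top) and genes of the complement list with enough counts, with 1 point per treated library and 95% counting intervals. C1q genes lie left of 0, between -1.19 and -0.36, while C3, Cfb, C1ra, C1s1 and Itgax lie right of 0 in all 3 comparisons.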

How the data were processed

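The authors deposited UMI counts, whole numbers per gene and cell barcode with no normalization, per the file headers and the values, beside tables that list cells with cluster numbers. Cell Ranger, Seurat and the mm10 build are named, without versions, per the submitters' processing notes. Groups came from the sample titles. Only listed cells were used, and 127 unlisted barcodes were left out. Doublets were not called. The genes and lists were chosen with earlier results of these data known.

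Counts of C1qa, C1qb and C1qc were summed per cluster and library in Python 3.11.15 (numpy 2.4.6, pandas 2.3.3, scipy 1.17.1) and divided by the total UMIs of those cells (CPM). Intervals were exact Poisson for levels, Clopper-Pearson for shares and conditional binomial for ratios of 2 counts, all at 95%. For PCR-amplified libraries they cover counting error only. Comparisons over all genes took those with at least 50 UMIs in the 2 libraries together, with 0.5 added to each count. Shares were also computed after thinning cells to 1000 UMIs. A cluster was named by type when at least 3 of the type's markers were detected and no other type had more among the 10 leading genes. Detected meant seen in at least 10% of the cluster's cells and higher than in the other clusters together. A cluster stayed unnamed when another type had at least 50% of its markers detected and more of them than the first type. The names may differ from the authors' own. Named were the 3 genes, complement-list genes with at least 50 UMIs, and the genes closest to C1q across clusters (10) and across cells (10 highest, 5 lowest); other genes name a cluster or gauge free RNA. C1s2 and Itgam, each on 2 gene IDs, were not used, and C4a was not analysed here. Some genes that these rules select are not reported here. The interval and ratio code was tested on simulated data. Depth limits low genes: a class of 4895041 UMIs sees 10 CPM as fewer than 50 counts.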

Additional observations from a re-analysis of the deposited data

Results flagged for a closer look

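Some clusters went against the direction of the rest. These differences between clusters were not tested, and each rests on 1 library per group. In the anti-PD-1 library, T cell-like cluster 8 (led by Cd8b1 and Cd8a) had more summed C1q than control, with a log2 ratio of 1.75, while 14 of 17 clusters compared were lower beyond counting error. In that library 6 of its 92 cells held 87.5% of the cluster's C1q UMIs. Without cells of 10 or more C1q UMIs, a cut that lowers a level by construction, it was 172.5 CPM, against 247.5 in control.

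In the anti-CTLA-4 library 13 clusters were lower, while macrophage/monocyte-like cluster 1 was higher by 0.12, conventional dendritic cell-like cluster 11 by 0.71 and unnamed cluster 13, which carries T cell and macrophage markers together, by 0.19. Cluster 13 held 21 cells in that library, and 10 of them held 94.2% of its C1q UMIs. Its level was 9241 CPM, against 8081 in control. With the cell richest in C1q left out of each library, it was 8310 against 7763. In the combination library 16 of 17 clusters were lower and cluster 11 was higher by 0.59. Without C1q-rich cells, again a cut that lowers a level by construction, cluster 11 had 298 CPM under anti-CTLA-4 and 290.2 under the combination, against 270.5 in control.

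The 127 barcodes that the authors did not list carried C1q as well, at 1231 CPM, beside 6886 in listed cells. Their level was 683.5 CPM under anti-PD-1, 227 under anti-CTLA-4, 659 under the combination and 2249 in control. The control library held 2478 of their 3186 C1q UMIs, and 23 of the 127 had 10 or more. They had a median of 16627 UMIs, against 2811 in listed cells.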

How the results depend on the processing

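With 1 library per group no value has a replicate check, and the reported log2 ratios of summed C1q over control in macrophage/monocyte-like cells are -0.38 under anti-PD-1, -0.40 under anti-CTLA-4 and -1.05 under the combination. In the same order they were -0.31, -0.29 and -0.90 with size factors, -0.53, -0.45 and -0.93 with cluster 0 joined to the class, and -0.49, -0.37 and -0.88 in cells gated by Csf1r or Adgre1 without Cd3 genes. They were -0.44, -0.44 and -1.09 with ribosomal and mitochondrial genes left out of the total. Weighting cells equally gave -0.43 and -0.51 for the single antibodies, subtracting the T cell-like level gave -0.36 for anti-CTLA-4, and leaving out cluster 15 gave -0.40 for anti-PD-1. Weighting clusters as in control gave -0.11, -0.03 and -0.37, and C1qc with anti-CTLA-4 turned to 0.03. That weighting without cluster 15, an alternative added after seeing the data since treated libraries held few of its cells, gave -0.12, 0.07 and -0.24, and for anti-CTLA-4 it gave 0.03 (C1qa), 0.07 (C1qb) and 0.12 (C1qc). By construction these 2 alternatives hold the mix of clusters fixed; the cause of the mix was not tested. Of 90 single-gene values 25 stayed within counting error, 61 moved and 4 turned. Leaving out cells with 10 or more C1q UMIs, also added later, lowers a level by construction. It was applied to lymphoid, dendritic and neutrophil-like cells, with macrophage/monocyte-like cells and clusters 0 and 4 set beside them. No paired analysis was possible because each group has 1 library.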
